A study of Mus musculus with 30 samples.

Results

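Quadriceps of Gaa knockout (KO) mice was compared with quadriceps of wild-type (WT) mice across all genes. All 6 animals were untreated males aged 4 months on the B6;129 background, 3 per genotype, and they gave 6 of the 30 libraries of the series. The other 24 libraries were spinal cord of the same 6 animals, and quadriceps and cord of WT, KO and treated KO males on a B6;129;DBA2/J background, where treated mice had received, as neonates, an intravenous AAV9 vector for human GAA. The B6;129 mice carried no vector, and the labels do not name the knockout allele. PolyA RNA was read from snap-frozen whole muscle, so fibres and all cells between them were measured together, and fewer cells of a type cannot be told apart from less RNA per cell. The 3 animals of a genotype are separate mice. The deposited columns form a separate series for each background, and an effect of that series on a comparison of backgrounds cannot be told apart from the background itself.

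The product of Gaa, acid alpha-glucosidase, cuts glycogen to glucose inside lysosomes. Its loss causes Pompe disease, in which glycogen fills lysosomes of heart and skeletal muscle, autophagic material builds up in fibres and the muscle weakens. Cytosolic glycogen is handled by separate enzymes, led in muscle by the phosphorylase Pygm, so the lysosomal and the cytosolic routes can be read apart in the transcripts.

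Values are the deposited signal, a read count scaled to the library. The 6 libraries held 2.05e+07 to 3.71e+07 reads, and 1 read was worth 0.0329 to 0.072 in signal, so levels below about 0.216 (3 reads in the shallowest library) rest on very few reads. Differences are log2(signal + 0.5), KO minus WT, ± SE, with n = 3 and 3, and adjusted p-values come from limma over 14113 tested genes. All 18 fixed skeletal muscle identity genes were measured in every library and summed to a signal of 227300 to 243000 in KO and 286400 to 310500 in WT. Mitochondrial transcripts took 13.2% to 16.2% of reads in KO and 17.3% to 21.1% in WT.

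Of the genes tested, 5046 were called at an adjusted p under 0.05, which is 35.8%, with 2359 higher in KO (16.7%) and 2687 lower (19.0%). For 53.9% of genes the ranges of the 3 KO and the 3 WT libraries were separate. Past 2-fold, 5.68% of genes were higher and 2.70% lower. The higher share of the calls was 46.7% in the deposited scaling and 83.3% when reads were only divided by the library total (total-count scaling), which moved the median difference of all genes from -0.025 to 0.24. Lists below are therefore read against these shares and against the median of all genes. In each of the 63 lists total-count scaling gave as many or more members higher and as many or fewer lower.

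**Figure D1:**
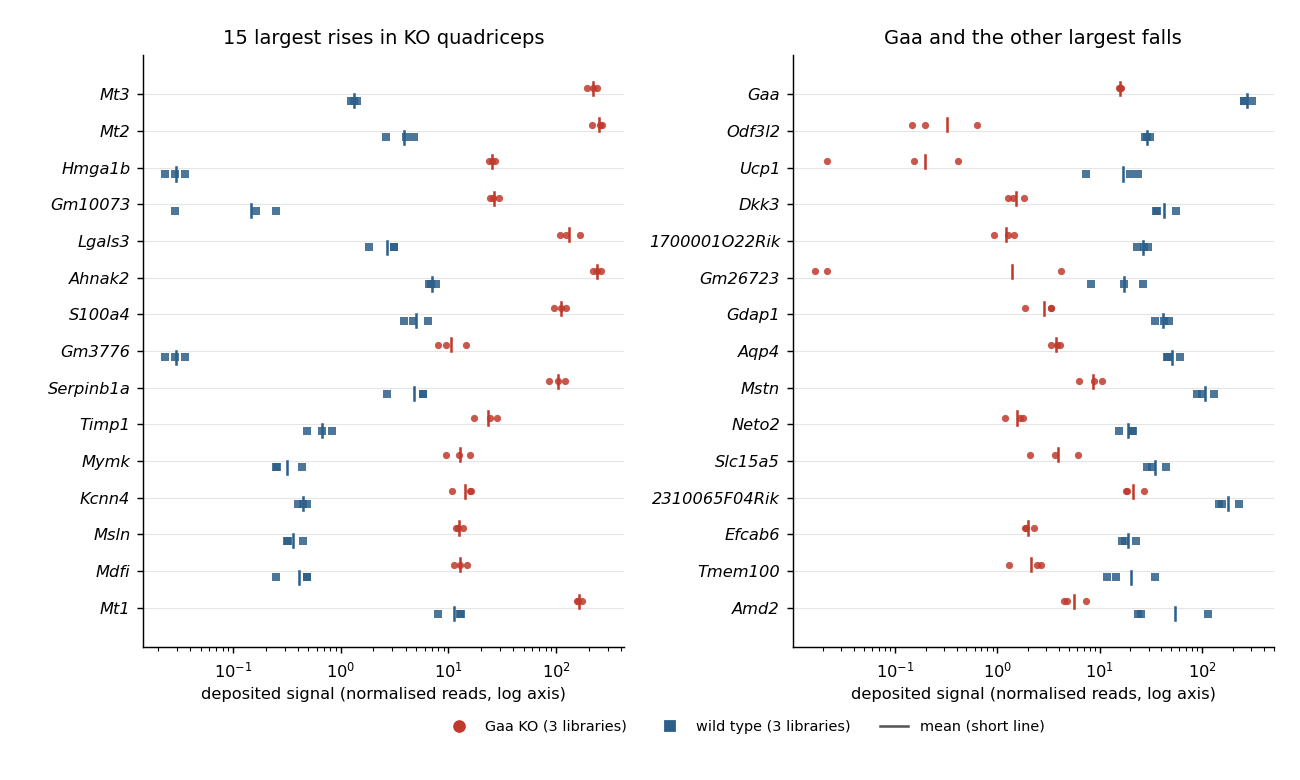
Deposited signal (normalised reads, log axis) of the 15 genes that rose most and of Gaa with the other genes that fell most, with 1 point per library and a short line at the mean of the 3 KO (circles) or 3 WT (squares) libraries. The genes were chosen among called genes with separate groups, so KO and WT points lie apart by that choice. Mt3 stands at 195, 241 and 219.8 in KO and 1.33, 1.24 and 1.42 in WT.

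The target transcript was checked first. Gaa (ENSMUSG00000025579, chr11:119267887-119285454, GRCm38) read 16.3, 15.4 and 15.7 in KO and 308, 258 and 259 in WT. It was low in all KO libraries and high in all WT libraries, a 16.8-fold difference (-4.07 ± 0.15, adjusted p = 1.63e-09). The table gives 1 value per gene, so which exons the remaining KO reads cover is not visible. Within 1 Mb on either side, 26 other genes were tested, of which 5 were higher and 1 lower (23.1% against 35.8% of all genes). The gene that moved most there was Card14, a scaffold protein of NF-kB signalling that starts 22314 bases beyond the end of Gaa and was picked out after its values were seen. Card14 read 13.4, 11 and 12.7 in KO and 0.684, 0.432 and 0.86 in WT, with no overlap (3.48 ± 0.27, adjusted p = 8.38e-07), and differed by 3.63 on the mixed background.

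Lysosomal enzymes rose as a broad group. The glycosidases and lipid hydrolases, which take apart sugar chains and membrane lipids, were higher for 16 of 34 tested members and lower for 1, Gaa itself, with a median of 0.39. Hexa, the alpha subunit of beta-hexosaminidase, read 155, 174 and 162 in KO and 51.1, 52.9 and 55.3 in WT (1.61 ± 0.11, adjusted p = 4.66e-07). Galns, a sulfatase of keratan sulfate breakdown, read 4.73, 3.25 and 4.06 in KO and 1.19, 1.87 and 1.51 in WT (1.16 ± 0.19, adjusted p = 0.000488). Glb1, the lysosomal beta-galactosidase, read 4.25, 4.29 and 4.49 in KO and 1.84, 2.1 and 2.53 in WT (0.87 ± 0.15, adjusted p = 0.000535). All KO libraries lay above all WT libraries for these 3 genes. The other 13 rises ran from 0.32 for Fuca1, the alpha-fucosidase, to 0.68 for Pla2g15, a lysosomal phospholipase.

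Lysosomal proteases and their inhibitors moved further. Among 16 tested members 12 were higher and 0 lower, with a median of 0.93. Lgmn, the asparagine endopeptidase legumain, read 98.2, 126 and 147 in KO and 32.4, 31.7 and 33 in WT (1.9 ± 0.13, adjusted p = 4.53e-07). Ctsl, a main cysteine protease of the lysosome, read 181, 165 and 177 in KO and 71.5, 85.5 and 77.4 in WT (1.16 ± 0.083, adjusted p = 4.86e-07). Groups were separate for both, and also for the cysteine protease inhibitors Cstb (1.29 ± 0.11, adjusted p = 2.45e-06) and Cst6 (1.07 ± 0.089, adjusted p = 1.86e-06), so enzyme and inhibitor transcripts were higher together. Ctss, a cathepsin that is strongly expressed in macrophages, had the largest difference of the list at 3.17. The macrophage marker list was higher in the same libraries, with a summed signal of 350 to 422 in KO and 78.1 to 115.0 in WT, and its part in the rise of the lysosomal lists was not tested.

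The limiting membrane of the lysosome changed less evenly. Of 23 membrane proteins 9 were higher and 3 lower, with a median of 0.15. Cd63, a tetraspanin of late endosomes, read 313, 371 and 365 in KO and 134, 122 and 115 in WT (1.5 ± 0.11, adjusted p = 6.1e-07). Lamp1 and Lamp2, the major membrane glycoproteins, were higher by 0.65 ± 0.055 (adjusted p = 2.25e-06) and 0.56 ± 0.075 (adjusted p = 8.31e-05), with groups that did not overlap. The 3 that fell were Laptm4b (-0.6), Mfsd8 (-0.59) and Lmbrd1 (-0.22). In the proton pump that acidifies the lysosome, 5 of 9 tested subunits of the catalytic V1 sector were higher and 0 lower, and 8 of 11 of the membrane V0 sector and accessory proteins were higher. Atp6v1a, the catalytic subunit, read 45.9, 57.9 and 54.3 in KO and 25.5, 27.2 and 26.1 in WT (0.98 ± 0.11, adjusted p = 1.57e-05), whereas its ring partner Atp6v1b2 read 81.9, 88.5 and 90.6 in KO and 75.9, 79.7 and 83.3 in WT (0.13 ± 0.14, adjusted p = 0.514), with overlapping groups. Atp6v0d2, an isoform best known from osteoclasts and macrophages, read 1.68, 1.46 and 1.63 in KO and 0.18, 0.144 and 0.0232 in WT (1.77 ± 0.22, adjusted p = 5.17e-05), at levels that rest on few reads in WT. The V0 subunit a isoforms went different ways, since Tcirg1 rose (0.75 ± 0.18, adjusted p = 0.00502), Atp6v0a2 fell (-0.35 ± 0.084, adjusted p = 0.00573) and Atp6v0a1 stood at 84.4, 80.9 and 80 in KO and 82.5, 76.9 and 81.2 in WT. Under total-count scaling 14 membrane proteins were higher and 0 lower, so that the falls of Laptm4b, Mfsd8 and Lmbrd1 were lost, as was that of Atp6v0a2.

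The balance of the regulators of lysosome genes depended on the scaling. Among 26 tested genes of the TFEB family, folliculin and the Rag GTPases, 4 were higher and 4 lower, close to the shares of all genes, but 12 were higher and 1 lower under total-count scaling. Tfeb, the transcription factor that switches on lysosomal genes when it enters the nucleus, read 72.6, 83.3 and 79.4 in KO and 99.2, 83.1 and 78.9 in WT (-0.14 ± 0.11, adjusted p = 0.314), and its relative Tfe3 read 17.6, 17.5 and 18 in KO and 9.76, 15.2 and 15.3 in WT (0.41 ± 0.15, adjusted p = 0.0503). Neither passed the test. Mitf, another relative, fell (-0.44 ± 0.11, adjusted p = 0.00556), Rragd, a Rag GTPase, fell (-0.38 ± 0.072, adjusted p = 0.00112), and Tsc1, which restrains the growth kinase mTORC1, fell most (-0.77 ± 0.080, adjusted p = 1.11e-05). The calls of Mitf and Rragd were lost under total-count scaling. Fnip2, a folliculin partner, rose (0.57 ± 0.13, adjusted p = 0.00409), with Lamtor4 (0.41), Lamtor1 (0.32) and Rragc (0.27), parts of the lysosomal platform that recruits mTORC1.

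TFEB and its relatives bind the letters TCACGTG near gene starts, so the promoters of the lysosomal lists were searched for them (250 bases before to 50 after each start, both strands, RefSeq on GRCm38.p6). Of the 83 promoters found for 70 genes of the 5 lysosomal lists, 20.5% held TCACGTG, against 3.77% of all 32851 promoters and 5.76% of those of tested genes. Every match also holds the shorter CACGTG, which 22.9% of the lysosomal promoters, 7.15% of all promoters and 9.83% of those of tested genes held. The members called higher whose promoters held the longer motif included Lgmn, Lamp1, Atp6v1a, Ctsa, Glb1, Atp6v0b, Atp6v0d1 and Atp6v0e. The share of 20.5%, or 17 promoters, counts all tested members, called or not. Whether the motif goes with the rises was not tested. The promoter of Lamp1 is shown because it held 4 matches, given in capitals on whichever strand they lie (chr8:13158911-13159210, plus strand).
Lamp1: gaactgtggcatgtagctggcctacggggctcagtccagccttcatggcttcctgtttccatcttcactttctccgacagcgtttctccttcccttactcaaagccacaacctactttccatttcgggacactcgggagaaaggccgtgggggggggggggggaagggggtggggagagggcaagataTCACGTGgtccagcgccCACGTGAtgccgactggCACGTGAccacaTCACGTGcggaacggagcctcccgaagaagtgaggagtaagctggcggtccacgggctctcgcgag

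Autophagy genes were mixed. Of 42 tested, 5 were higher and 9 lower, with a median of -0.024, next to -0.025 for all genes; under total-count scaling 20 were higher and 3 lower. The 5 that rose included the LC3 family members that coat autophagosome membranes, Map1lc3a at 365, 321 and 317 in KO and 149.7, 207 and 167 in WT (0.95 ± 0.16, adjusted p = 0.000482), Gabarap at 197, 197 and 203 in KO and 123, 130.3 and 126 in WT (0.65 ± 0.059, adjusted p = 3.12e-06) and Map1lc3b (0.27 ± 0.057, adjusted p = 0.00202). The cargo receptor Sqstm1, which carries ubiquitinated proteins, read 1046, 1095 and 1104 in KO and 725, 589.9 and 636 in WT (0.74 ± 0.14, adjusted p = 0.00108). Stbd1, which binds glycogen, read 119.9, 109.8 and 120.3 in KO and 60.4, 74.6 and 72.6 in WT (0.75 ± 0.21, adjusted p = 0.0116). KO and WT libraries were apart for all 5. The 9 that fell included the starting kinases Ulk1 (-0.78 ± 0.16, adjusted p = 0.00158) and Ulk2 (-0.55 ± 0.086, adjusted p = 0.000271), the receptor Optn (-0.66) and the fusion protein Stx17 (-0.51). The call of Stx17 was lost under total-count scaling.

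In a list of galectins and genes linked to lysosome damage, 8 of 14 were higher and 0 lower. Lgals8 (0.037 ± 0.12, adjusted p = 0.839), Lgals9 (0.02 ± 0.17, adjusted p = 0.941) and Trim16 (-0.016 ± 0.096, adjusted p = 0.916) were not called. Lgals3, a galectin that binds sugars exposed on torn lysosomes and is also abundant in macrophages, read 108, 124 and 165 in KO and 1.84, 3.14 and 3.14 in WT (5.38 ± 0.33, adjusted p = 2.11e-07). Lgals1 read 469.6, 561 and 536 in KO and 247, 277 and 214 in WT (1.09 ± 0.11, adjusted p = 9.08e-06), and Pdcd6ip (ALIX), a membrane repair adaptor, read 78.2, 84.7 and 77.5 in KO and 58, 59.3 and 63.3 in WT (0.41 ± 0.067, adjusted p = 0.000399). Gpnmb (2.71) and Trem2 (1.79 ± 0.32, adjusted p = 0.000786), both phagocyte genes, were among the 8.

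The cytosolic route of glycogen breakdown was lower. Of 10 tested members 0 were higher and 5 lower, with a median of -0.76. Pygm, the muscle phosphorylase, read 5865, 5447 and 5957 in KO and 10550, 9813 and 8928 in WT (-0.76 ± 0.12, adjusted p = 0.000331). Ppp1r3a, which ties protein phosphatase to glycogen, read 262, 246 and 237 in KO and 454, 441 and 411 in WT (-0.81 ± 0.077, adjusted p = 4.91e-06). For both genes every KO library lay below every WT library, but after quantile normalization Pygm differed by -0.23 and the call was lost (adjusted p = 0.0944). Phosphorylase kinase, which switches phosphorylase on, lost transcripts of its muscle subunits Phka1 (-0.78 ± 0.096, adjusted p = 4.52e-05), Phkb (-1.03 ± 0.082, adjusted p = 1.17e-06) and Phkg1 (-0.75 ± 0.096, adjusted p = 5.56e-05), while the liver-type subunits Phka2 and Phkg2 differed by 0.0098 ± 0.15 and 0.054 ± 0.1 and did not pass the test. The brain phosphorylase Pygb read 12.1, 9.95 and 9.03 in KO and 10.3, 14.1 and 7.83 in WT, and the liver phosphorylase Pygl read 6.0, 5.99 and 4.29 in KO and 15.5, 24.5 and 3.83 in WT, with overlapping groups in both.

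Glycogen synthesis split by step. Gys1, the muscle synthase, was lower by a small margin at 504, 490.2 and 510.3 in KO and 597, 626 and 637 in WT (-0.3 ± 0.096, adjusted p = 0.0238). Gyg, the glycogenin primer, read 486, 499.9 and 467 in KO and 485, 446 and 473 in WT (0.050 ± 0.059, adjusted p = 0.545). Gbe1, the branching enzyme, was the only tested synthesis enzyme that rose, at 199.7, 204 and 142 in KO and 102, 112 and 118 in WT (0.69 ± 0.15, adjusted p = 0.00248). Laforin (Epm2a, -0.57 ± 0.1, adjusted p = 0.000709) and malin (Nhlrc1, -0.65 ± 0.2, adjusted p = 0.0212), whose loss gives poorly branched glycogen in Lafora disease, both fell. Phosphatase targeting subunits went apart, with Ppp1r3c (-0.84 ± 0.2, adjusted p = 0.00437) and Ppp1r3b (-1.57 ± 0.54, adjusted p = 0.036) lower and Ppp1r3e (0.82 ± 0.26, adjusted p = 0.023) higher. Under total-count scaling the list came to 3 higher and 3 lower, against 2 and 6 here, and the calls of Gys1, Ppp1r3b, Nhlrc1 and Ppp1r3e were lost in 7, 6, 3 and 3 of the 15 alternatives.

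**Figure D2:**
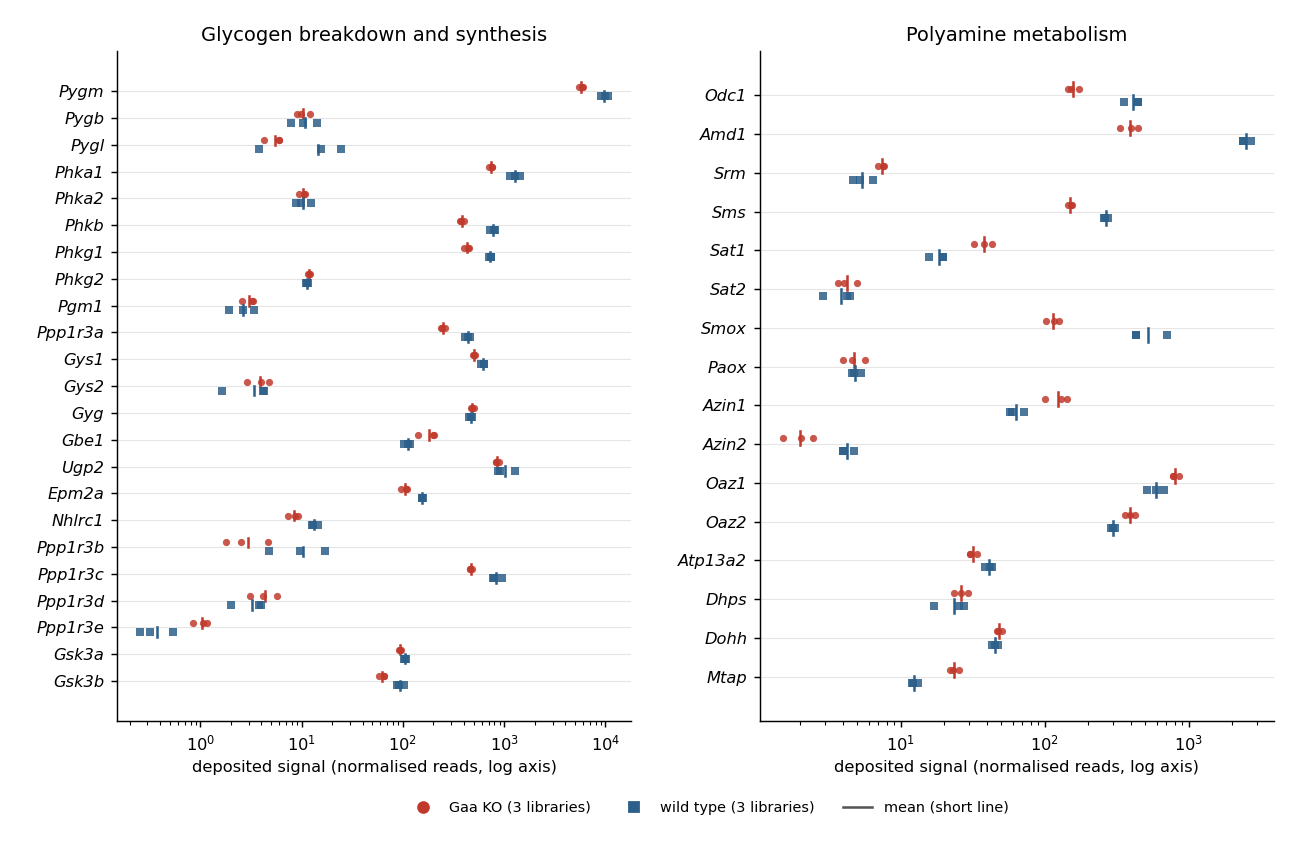
Deposited signal (normalised reads, log axis) of the tested glycogen and polyamine genes, with 1 point per library and a short line at each mean. Pygm and Phkb are lower and Gbe1 higher in all 3 KO libraries, and Amd1 stands at 448, 396 and 332 in KO and 2395, 2692 and 2370 in WT.

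Glucose handling genes changed by isoform, with a balance that depended on the scaling. Of 37 glycolysis and glucose uptake genes 3 were higher and 15 lower, with a median of -0.29; under total-count scaling 9 were higher and 8 lower. The 3 that rose were Hk1, a hexokinase that sits on mitochondria in most tissues, at 27.3, 35.8 and 37.6 in KO and 8.61, 9.13 and 9.04 in WT (1.84 ± 0.16, adjusted p = 2.35e-06), the transporter Slc2a1 at 20.5, 23.5 and 24.4 in KO and 5.15, 6.83 and 8.95 in WT (1.67 ± 0.36, adjusted p = 0.00256), and Pdk3, a kinase that shuts pyruvate dehydrogenase, at 4.82, 5.08 and 5.38 in KO and 1.04, 0.778 and 1.19 in WT (1.9 ± 0.17, adjusted p = 2.89e-06). Groups were separate in all 3. The insulin-regulated transporter Slc2a4 fell (-0.67 ± 0.11, adjusted p = 0.000294), as did Slc2a3 at 4.03, 3.46 and 2.52 in KO and 26.1, 18.9 and 13.5 in WT (-2.35 ± 0.3, adjusted p = 5.52e-05), the regulatory enzyme Pfkfb1 (-1.49 ± 0.19, adjusted p = 4.74e-05) and the muscle isoforms Fbp2 (-1.16), Eno3 (-0.46) and Pfkm (-0.44). The calls of Eno3 and Pfkm were lost under total-count scaling and after quantile normalization, where their differences were 0.029 and 0.019.

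Mitochondrial transcripts were lower where they come from the organelle's own genome. Of its 13 protein genes 0 were higher and 10 lower, with a median of -0.77; 8 were lower under total-count scaling and 4 after quantile normalization. The complex I gene mt-Nd5 read 6290, 5162 and 4502 in KO and 10810, 11130 and 9559 in WT (-0.99 ± 0.15, adjusted p = 0.00017), and mt-Atp8, of the ATP synthase, read 3432, 2912 and 2446 in KO and 5022, 5863 and 6602 in WT (-1.0 ± 0.16, adjusted p = 0.000283). Both were lower in every KO library. The nuclear genes of the respiratory chain stayed near the background, with 5 of 58 higher and 7 lower and a median of -0.030, but this balance depended on scaling, with 32 higher and 1 lower under total-count scaling and 21 and 3 after quantile normalization. Among them Ndufs1, an iron-sulfur subunit of complex I, fell (-0.53 ± 0.11, adjusted p = 0.0022), and the small subunits Cox8a (0.66) and Ndufa2 (0.5 ± 0.096, adjusted p = 0.00119) rose.

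Citric acid cycle genes were lower for 11 of 19 and higher for 1. Cs, citrate synthase, read 936, 913 and 896 in KO and 1161, 1318 and 1386 in WT (-0.49 ± 0.075, adjusted p = 0.000229). Suclg1, a subunit of succinate-CoA ligase, read 292, 286 and 276 in KO and 424, 469 and 480.3 in WT (-0.68 ± 0.100, adjusted p = 0.000167). Idh2, the NADP-linked isocitrate dehydrogenase, was the exception at 499.9, 577 and 488 in KO and 312, 323 and 293 in WT (0.75 ± 0.12, adjusted p = 0.000324), while its NAD-linked counterpart Idh3a fell (-0.54 ± 0.079, adjusted p = 0.000164). Fatty acid oxidation was lower for 6 of 33, among them Acadm (-0.6 ± 0.13, adjusted p = 0.00295) and Cpt1b (-0.42), near the background share; the call of Cpt1b was lost under total-count scaling and after quantile normalization. The only rise there was Ucp2, an uncoupling protein relative also found in immune cells, at 37.3, 24.4 and 44.7 in KO and 13.7, 12.6 and 5.93 in WT (1.72 ± 0.26, adjusted p = 0.000241). Mitochondrial fusion and transcription factors were lower for 10 of 18, with Mfn1 at 257, 245 and 229 in KO and 379, 377 and 391 in WT (-0.65 ± 0.085, adjusted p = 6.86e-05) and Opa1 at 143, 138 and 133 in KO and 192, 204 and 214 in WT (-0.56 ± 0.080, adjusted p = 0.00014). Under total-count scaling these 3 lists came to 5, 1 and 2 members lower, with medians of -0.048, 0.021 and -0.064.

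Polyamines are small cations made from ornithine, and several of their enzymes are known for large swings in muscle that atrophies. Of 16 tested genes 5 were higher and 6 lower (8 and 5 under total-count scaling). Amd1, the decarboxylase that supplies the aminopropyl group (chr10:40287458-40302186), read 448, 396 and 332 in KO and 2395, 2692 and 2370 in WT (-2.67 ± 0.16, adjusted p = 2.11e-07). Odc1, the first enzyme of synthesis, read 152, 145 and 172 in KO and 443, 443 and 353 in WT (-1.4 ± 0.22, adjusted p = 0.000269). Smox, spermine oxidase, read 125, 102 and 115 in KO and 434, 704 and 431 in WT (-2.16 ± 0.34, adjusted p = 0.000315). All 3 were lower in each KO library than in any WT library, and Sms, spermine synthase, was lower as well (-0.82 ± 0.11, adjusted p = 6.99e-05). In the opposite direction, Sat1, which acetylates polyamines for export, read 37.8, 32.3 and 43 in KO and 15.7, 19.6 and 19.8 in WT (1.02 ± 0.3, adjusted p = 0.0173). Azin1, a decoy that frees ornithine decarboxylase from its antizymes, read 100.4, 142 and 129.6 in KO and 57.7, 59.4 and 71.8 in WT (0.97 ± 0.25, adjusted p = 0.00857). The antizymes Oaz1 (0.44) and Oaz2 (0.38) and the salvage enzyme Mtap (0.89) also rose. The synthesis enzymes Amd1, Odc1 and Sms were thus lower while the acetylation and antizyme transcripts were higher. Srm, spermidine synthase, did not follow, at 7.57, 7.65 and 6.99 in KO and 4.65, 5.21 and 6.39 in WT. It was higher without overlap but not called (0.43 ± 0.19, adjusted p = 0.0936). On the mixed background Amd1 differed by -2.31 ± 0.16, Odc1 by -1.46 ± 0.22 and Smox by -2.8 ± 0.34. Amd2, a near-identical copy of Amd1, also fell, at 7.44, 4.81 and 4.49 in KO and 23.6, 115 and 25.1 in WT, but reads of the copies may be shared and its own level is uncertain.

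The main adult myosin was lower and developmental myosins were higher. Myh4, the heavy chain of the fastest fibres, read 43940, 38720 and 37360 in KO and 75150, 62760 and 60890 in WT (-0.73 ± 0.17, adjusted p = 0.00434), a call lost in 3 of 15 alternatives, with a difference of -0.12 after quantile normalization. Myh1 (0.079 ± 0.21) and Myh2 (-0.16 ± 0.21), the other fast chains, overlapped between groups. The embryonic chain Myh3 read 59.5, 41 and 74.6 in KO and 2.56, 4.98 and 3.93 in WT (3.77 ± 0.26, adjusted p = 3.46e-07), and the perinatal chain Myh8 read 131, 105 and 147 in KO and 25.8, 40.9 and 34.7 in WT (1.92 ± 0.2, adjusted p = 1.12e-05). These were the only 2 of 13 tested heavy chains that rose, and Myh11, of smooth muscle, was the only other that fell (-0.82 ± 0.19, adjusted p = 0.00513). Per kilobase of exon, Myh4 made up 72.0 ± 1.33% of 6 sarcomeric heavy chain transcripts in KO and 80.9 ± 4.2% in WT (SD), Myh1 20.6 ± 1.21% and 13.6 ± 3.50%, and Myh2 7.07 ± 0.534% and 5.39 ± 0.775%. Embryonic Myh3 stayed a trace, at 0.105 ± 0.0358% in KO and 0.00470 ± 0.00166% in WT.

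**Figure D3:**
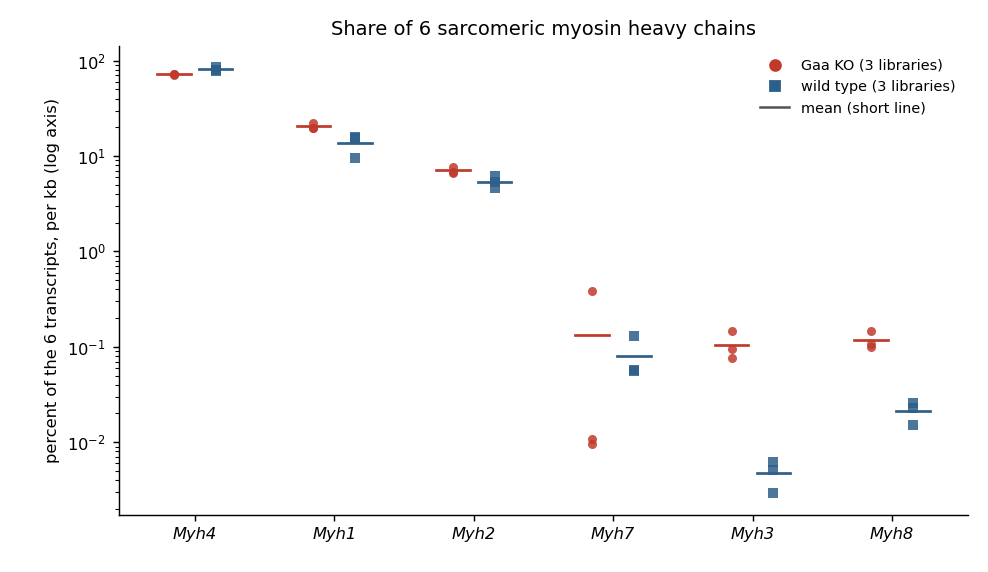
Share of 6 sarcomeric myosin heavy chain transcripts, each divided by its exon length (percent, log axis), with 1 point per library and a line at the mean of the 3 KO or 3 WT libraries. Myh3 and Myh8 are higher in each KO library, and 1 KO library stands far above the other 2 for Myh7.

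Several slow-fibre genes set KO replicate 1 apart. Myh7, the slow heavy chain, read 340.2, 8.39 and 6.96 in KO and 72, 65 and 142 in WT, so that library was the highest of all 6 and the other 2 KO libraries were the lowest. Tnnc1 (67.9, 10 and 13.8 in KO), Tnnt1 (121, 43.5 and 53.7) and Tpm3 (162, 42.1 and 52.5), slow troponin and tropomyosin genes, showed the same library high. None of these 4 passed the test, and no direction is read from them. Tnni1, the slow troponin I, was called higher without overlap at 66.4, 24.9 and 51.8 in KO and 13.8, 18 and 23.7 in WT (1.27 ± 0.44, adjusted p = 0.039), a call lost in 5 of 15 alternatives, among them without KO replicate 1 (0.97). For the slow light chains KO replicate 1 did not stand far above the rest. Myl2 read 100.3, 81 and 67.1 in KO and 45.6, 90 and 83.5 in WT, and Myl3 read 174, 147 and 164 in KO and 139, 233 and 128 in WT.

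Other developmental sarcomere genes rose with Myh3. Myl4, the embryonic light chain, read 52.9, 55 and 93.2 in KO and 3.93, 5.62 and 5.04 in WT (3.62 ± 0.23, adjusted p = 2.11e-07). Tnnt2, the cardiac troponin T of fetal muscle, read 21.2, 27.3 and 39.5 in KO and 2.77, 4.35 and 3.04 in WT (2.91 ± 0.22, adjusted p = 7.22e-07). Actc1, the cardiac actin of fetal muscle, read 725, 724 and 1357 in KO and 27.5, 156 and 413 in WT (2.87 ± 0.75, adjusted p = 0.00903). KO libraries were higher throughout, with a wide spread of Actc1 in WT. Des, the intermediate filament desmin, rose to 6585, 6634 and 6365 from 4455, 4130 and 3629 (0.69 ± 0.1, adjusted p = 0.000197). Ankrd1, a stretch-responsive titin partner, read 67.1, 75.9 and 96.6 in KO and 12.9, 13.3 and 7.32 in WT (2.81 ± 0.88, adjusted p = 0.0226).

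The balance of the other structural genes depended on the scaling. Among 32 thin filament, Z-disc and titin genes 12 were lower and 7 higher (6 and 10 after quantile normalization, 8 and 11 under total-count scaling). Ttn (titin) read 8287, 8247 and 7707 in KO and 14780, 15330 and 14150 in WT (-0.87 ± 0.098, adjusted p = 2.13e-05), Neb (nebulin) read 4777, 4544 and 4315 in KO and 8577, 8356 and 7652 in WT (-0.85 ± 0.097, adjusted p = 2.26e-05), and Myom1, of the M-band, fell by 0.58 on the log2 scale. Ryr1, the calcium release channel, read 3477, 3461 and 3077 in KO and 6072, 5357 and 5133 in WT (-0.72 ± 0.099, adjusted p = 9.55e-05), a call lost after quantile normalization. These are long transcripts, and the difference between groups fell with exon length over all coding genes. In 10 bins of 12755 coding genes the median was 0.17 in the shortest bin, where 29.8% were higher and 9.55% lower, and -0.22 in the longest, where 9.17% were higher and 37.5% lower. The shortest minus the longest bin came to 0.39 between groups, whereas single libraries departed from their group by -0.058 to 0.12 on this measure. The part of transcript length in the falls of long genes and in the rises of short ones was not tested.

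**Figure D4:**
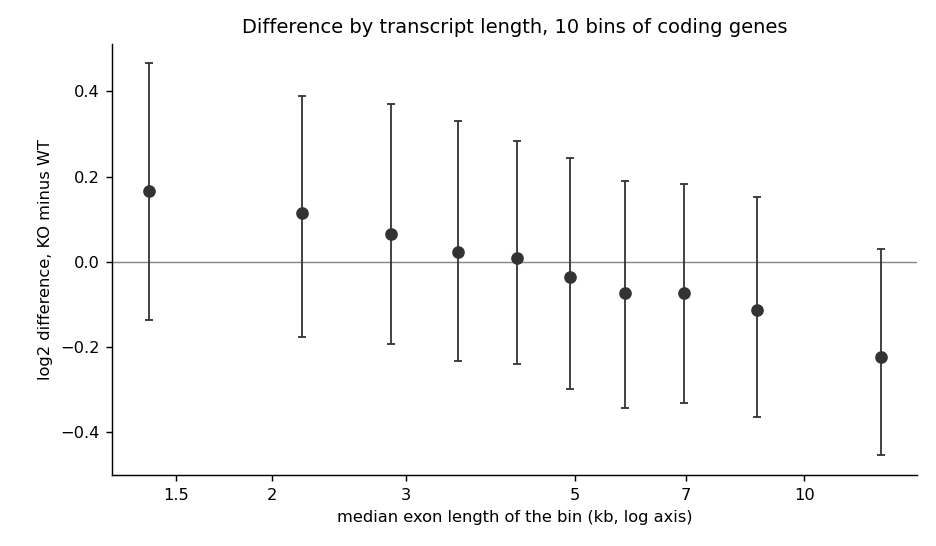
Median log2 difference (KO minus WT, deposited signal + 0.5) in 10 bins of coding genes by exon length (kb, log axis), with bars from the lower to the upper quartile of genes. Medians run from 0.17 in the shortest bin to -0.22 in the longest.

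Calcium handling genes went both ways, with 7 of 28 higher and 11 lower (7 and 7 under total-count scaling). Sln, sarcolipin, a small inhibitor of the calcium pump, read 43.1, 56.6 and 56.7 in KO and 3.71, 7.35 and 3.37 in WT (3.37 ± 0.29, adjusted p = 2.6e-06). Cacng1, a subunit of the calcium channel of the T-tubule, read 672, 673 and 681 in KO and 264, 232 and 174 in WT (1.62 ± 0.13, adjusted p = 1.73e-06). Casq2, the calsequestrin of slow and cardiac muscle, rose (1.29 ± 0.17, adjusted p = 6.29e-05). KO was higher in every library for all 3. Mrln, myoregulin, another small inhibitor of the same pump, went the other way at 40, 28.3 and 30.2 in KO and 94.9, 84.4 and 55.7 in WT (-1.22 ± 0.2, adjusted p = 0.000359), and Itpr1 (-1.33 ± 0.15, adjusted p = 1.88e-05), Jph1 (-0.83 ± 0.098, adjusted p = 3.07e-05), which holds the T-tubule to the calcium store, and Trdn (-0.71) fell with it.

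Genes of muscle formation and fusion were higher for 10 of 20 and lower for 3. Mymk, the fusogen myomaker, read 12.6, 9.48 and 15.9 in KO and 0.252, 0.432 and 0.256 in WT (4.0 ± 0.26, adjusted p = 2.86e-07), and its partner Mymx rose too (1.97 ± 0.25, adjusted p = 4.88e-05). Myog, the myogenin transcription factor, read 25.7, 20.7 and 25.4 in KO and 2.7, 4.81 and 6.11 in WT (2.33 ± 0.25, adjusted p = 1.38e-05). Ncam1, an adhesion molecule of young and denervated fibres, read 29.6, 38.1 and 31.8 in KO and 3.64, 5.1 and 5.09 in WT (2.73 ± 0.19, adjusted p = 3.46e-07). Groups were apart in each. Mdfi, an inhibitor of myogenic factors, also rose, from 0.252, 0.49 and 0.488 in WT to 11.4, 14.7 and 12.7 in KO (3.89 ± 0.2, adjusted p = 5.13e-08). Among satellite cell markers 5 of 12 were higher and 1 lower, Heyl (-0.80 ± 0.24, adjusted p = 0.0182), a call lost under total-count scaling. Pax7, which defines these stem cells, read 2.86, 4.25 and 4.82 in KO and 2.99, 2.85 and 2.21 in WT (0.47 ± 0.24, adjusted p = 0.144). It did not pass the test, while Myf5 (0.58 ± 0.2, adjusted p = 0.0379) and Sdc4 (0.91 ± 0.22, adjusted p = 0.00626) did. The call of Myf5 was lost in 7 of 15 alternatives.

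Acetylcholine receptor and junction genes were higher for 12 of 24 and lower for 2. Chrng, the fetal gamma subunit, which disappears from innervated adult fibres, read 6.13, 4.16 and 6.76 in KO and 0.108, 0.202 and 0.209 in WT (3.18 ± 0.26, adjusted p = 1.61e-06). Chrnd read 23.8, 38.7 and 32.3 in KO and 1.77, 2.45 and 2.63 in WT (3.52 ± 0.24, adjusted p = 3.46e-07). Runx1, a transcription factor induced by denervation, read 18.4, 20.3 and 22.8 in KO and 2.2, 2.51 and 1.84 in WT (2.97 ± 0.33, adjusted p = 1.84e-05). Each was several-fold higher in all KO libraries. The adult epsilon subunit Chrne was not among the calls, while the enzyme Ache (1.03), its anchor Colq (1.65) and the kinase receptor Erbb2 (1.46 ± 0.14, adjusted p = 4.99e-06) rose. The 2 that fell were the sodium channel Scn4a (-0.82) and Dach2 (-1.43 ± 0.37, adjusted p = 0.00881), a repressor of myogenin. The letters CAGCTG, an E-box that myogenic factors bind, stood in 31.0% of the 29 promoters found for this list, in 17.6% of 17 for the myogenic list, in 16.3% of all promoters and in 15.7% of those of tested genes.

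Annexins and S100 proteins, calcium-binding proteins of membrane repair, had the highest called share of the lists with at least 10 tested members: 14 of 17 were higher and 0 lower, with a median of 0.82. Anxa4 read 123, 140 and 132 in KO and 23.8, 25.3 and 20.8 in WT (2.48 ± 0.12, adjusted p = 4.67e-08), and Anxa2 read 135, 189 and 205 in KO and 39.5, 44.6 and 36 in WT (2.11 ± 0.18, adjusted p = 2.08e-06). S100a4 read 95.8, 109.7 and 124 in KO and 4.65, 6.48 and 3.83 in WT (4.35 ± 0.23, adjusted p = 5.13e-08). KO and WT were separated by several-fold in each. S100a6 (1.97 ± 0.15, adjusted p = 7.51e-07), S100a13 (2.32 ± 0.15, adjusted p = 2.52e-07) and Anxa8 (3.63 ± 0.3, adjusted p = 1.73e-06) rose with them. In the dystrophin complex and its partners 9 of 28 were higher and 7 lower (14 and 3 under total-count scaling). Ahnak2, a giant scaffold near the membrane, was the extreme at 220, 258 and 239 in KO and 6.81, 7.69 and 6.58 in WT (4.99 ± 0.18, adjusted p = 1.63e-09), its relative Ahnak rose less (0.89 ± 0.13, adjusted p = 0.000179), Capn3, a muscle protease, fell (-0.59 ± 0.076, adjusted p = 6.64e-05). Aqp4, a water channel held by the complex, read 3.82, 3.33 and 4.06 in KO and 46.6, 60.5 and 45.9 in WT (-3.6 ± 0.3, adjusted p = 1.73e-06).

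**Figure D5:**
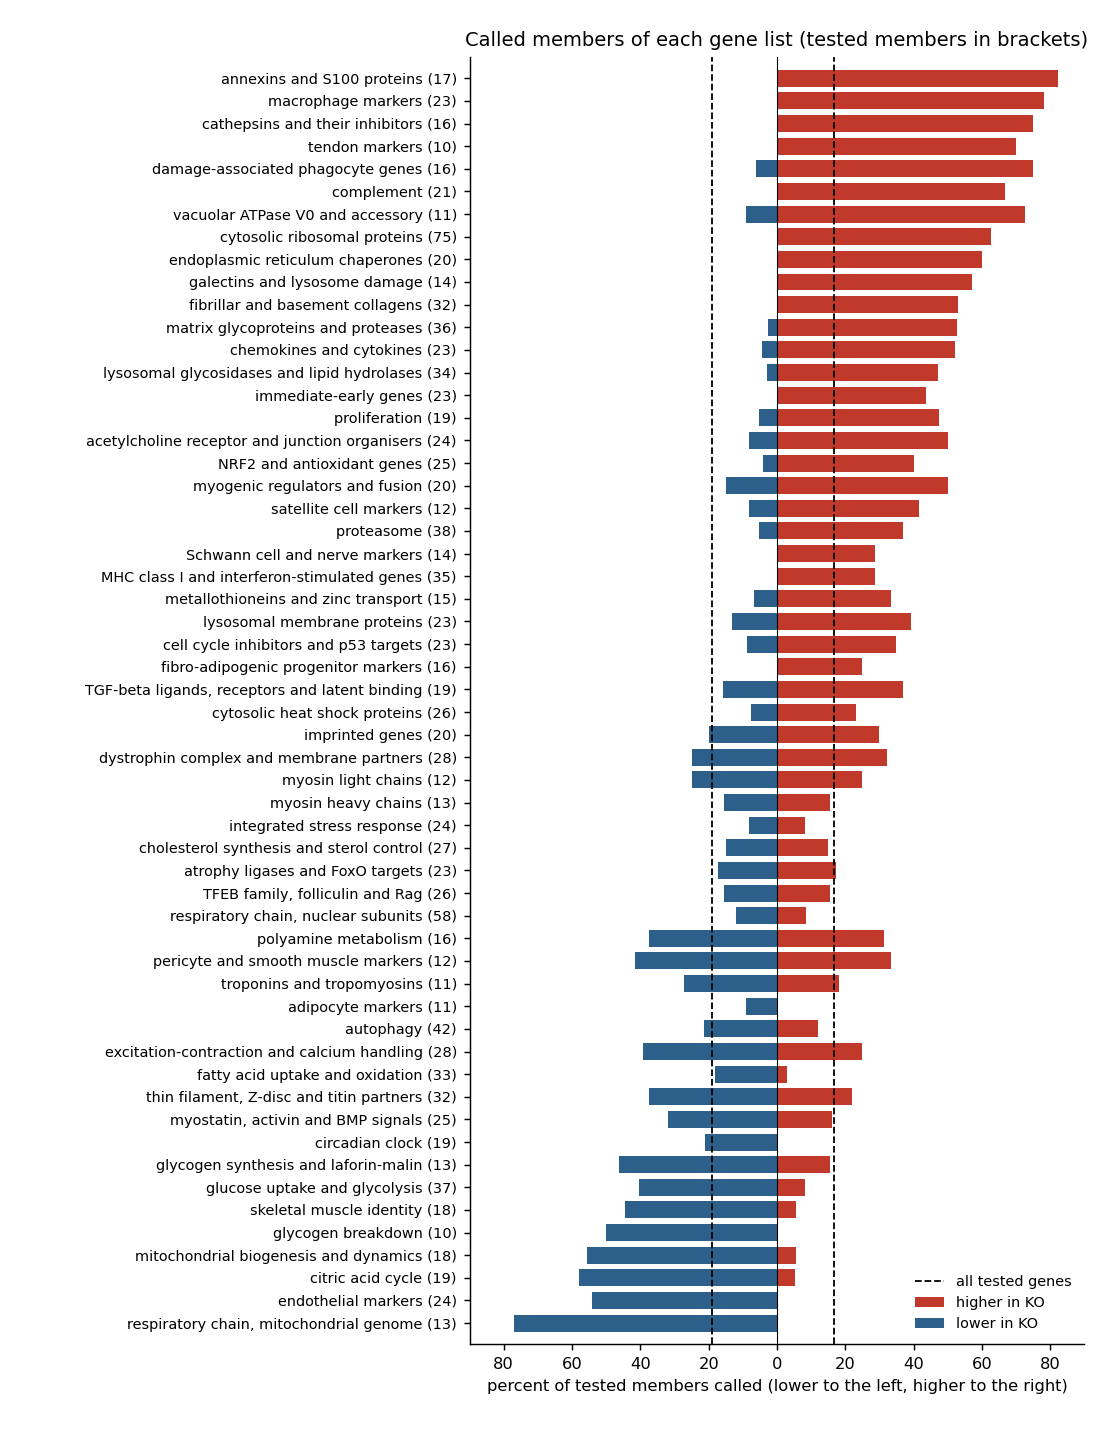
Percent of tested members called higher (right) or lower (left) in KO for each gene list with at least 10 tested members, with dashed lines at the 16.7% and 19.0% of all tested genes. Annexins and S100 proteins (82.4% higher) lie at the top and genes of the mitochondrial genome (76.9% lower) at the bottom. The balance of lists near the middle depends on scaling; under total-count scaling the nuclear respiratory chain, glycolysis, autophagy and thin filament lists had more members higher than lower.

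The metallothioneins, small cysteine-rich proteins that bind zinc and copper, held the largest rise on the log2(signal + 0.5) scale, on which genes with 0 reads in WT, such as Hmga1b below, have their change understated. Their cluster lies at 94.1 to 94.2 Mb of chromosome 8 (GRCm38). Mt3 (chr8:94152607-94154146) read 195, 241 and 219.8 in KO and 1.33, 1.24 and 1.42 in WT (6.9 ± 0.35, adjusted p = 5.13e-08), Mt2 (chr8:94172664-94173568) read 217, 256 and 269 in KO and 4.79, 4.06 and 2.63 in WT (5.87 ± 0.71, adjusted p = 4.01e-05), and Mt1 (chr8:94179082-94180327) read 159, 155 and 175 in KO and 8.03, 12.8 and 13 in WT (3.82 ± 0.64, adjusted p = 0.000446). In each of the 3 genes the lowest KO library was over 10-fold above the highest WT library. Mt4 had 0 reads in all WT libraries and 3.73, 3.51 and 2.81 in KO, which is at least 19.0-fold higher against a floor of 3 reads per WT library. The genes on either side moved far less, with Ogfod1 at -0.34 ± 0.071, Bbs2 at 0.44 ± 0.13 and Nup93 at 0.6 ± 0.14. Gm45774, an antisense gene over Mt2, followed at 2.99, 3.12 and 4.36 in KO, and whether its reads belong to Mt2 cannot be told, since strand-specific counting is not given in the sources used here.

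Metal-responsive elements carry the core TGCACNC or TGCGCNC, bound by the zinc sensor MTF1. The promoters of Mt1, Mt2 and Mt3 are shown because these genes had the highest KO levels of the cluster and rose together; capitals mark the cores on either strand (RefSeq, GRCm38.p6, plus strand). They cover chr8:94178839-94179138, chr8:94172368-94172667 and chr8:94152357-94152656.
Mt1: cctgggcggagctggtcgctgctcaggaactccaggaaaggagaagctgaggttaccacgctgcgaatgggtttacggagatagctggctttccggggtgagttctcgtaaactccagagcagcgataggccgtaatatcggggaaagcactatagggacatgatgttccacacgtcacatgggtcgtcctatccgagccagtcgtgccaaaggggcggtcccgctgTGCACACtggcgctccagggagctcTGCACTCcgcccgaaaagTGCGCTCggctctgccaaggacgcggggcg
Mt2: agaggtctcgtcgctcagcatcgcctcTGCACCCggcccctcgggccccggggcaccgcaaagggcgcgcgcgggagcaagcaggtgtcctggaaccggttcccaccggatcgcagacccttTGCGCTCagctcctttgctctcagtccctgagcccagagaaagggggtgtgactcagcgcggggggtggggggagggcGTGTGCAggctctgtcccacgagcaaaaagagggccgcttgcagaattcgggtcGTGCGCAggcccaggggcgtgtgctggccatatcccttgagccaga
Mt3: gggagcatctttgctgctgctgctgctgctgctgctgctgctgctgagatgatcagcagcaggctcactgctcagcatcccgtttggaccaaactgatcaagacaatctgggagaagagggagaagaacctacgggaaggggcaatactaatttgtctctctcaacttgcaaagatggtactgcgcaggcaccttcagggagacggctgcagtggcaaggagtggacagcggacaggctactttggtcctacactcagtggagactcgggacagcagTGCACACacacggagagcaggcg
Mt1 held 3 cores, Mt2 4 and Mt3 1 in these windows. Of 15 promoters of the metallothionein and zinc transport list 46.7% held TGCACNC, against 12.6% of all promoters and 12.8% of those of tested genes, and 40.0% held TGCGCNC, against 15.4% and 25.7%. Of 15 tested genes of that list 5 were higher, among them Mt1, Mt2, Mt3 and Mt4, and 1 lower (9 and 1 under total-count scaling). The other rise was Slc39a6, a zinc importer (0.92 ± 0.19, adjusted p = 0.00203), and the fall was Slc30a2, an exporter (-1.17 ± 0.29, adjusted p = 0.006). Mtf1 (-0.059 ± 0.10, adjusted p = 0.694) and the zinc transporter Slc30a1 (0.27 ± 0.15, adjusted p = 0.175) were not called.

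Protein quality control and redox genes were higher in parts. Antioxidant genes were higher for 10 of 25 and lower for 1, with the glutathione peroxidases Gpx1 at 136, 115 and 138 in KO and 56.9, 58.5 and 54.7 in WT (1.18 ± 0.11, adjusted p = 5.62e-06) and Gpx4 (0.85 ± 0.064, adjusted p = 7.22e-07) and the thioredoxin Txn1 (1.07 ± 0.094, adjusted p = 2.89e-06); the mitochondrial superoxide dismutase Sod2 was the 1 that fell (-0.52 ± 0.091, adjusted p = 0.000622). Chaperones of the endoplasmic reticulum were higher for 12 of 20 and lower for 0, with Xbp1 at 90.3, 89.6 and 94 in KO and 51, 51.1 and 53 in WT (0.81 ± 0.15, adjusted p = 0.000881), Canx (0.57 ± 0.085, adjusted p = 0.000198) and Manf (1.01). The integrated stress response stayed at 2 of 24 in each direction, with Cebpb (1.2 ± 0.31, adjusted p = 0.00891) and Psat1 (1.15 ± 0.2, adjusted p = 0.000587) higher and Atf5 (-0.56 ± 0.16, adjusted p = 0.0178) and Eif2ak4 (-0.31 ± 0.11, adjusted p = 0.04) lower. Under total-count scaling 6 of that list were higher and 0 lower, and the call of Eif2ak4 was lost in 9 and that of Atf5 in 2 of 15 alternatives. Of the small heat shock proteins, Hspb7, a muscle form, read 1112, 1316 and 1107 in KO and 315, 351 and 353 in WT (1.79 ± 0.37, adjusted p = 0.00194). Proteasome subunits were higher for 14 of 38 and lower for 2, led by Psmb5 (0.79 ± 0.092, adjusted p = 2.73e-05), and cytosolic ribosomal proteins for 47 of 75 with 0 lower and a median of 0.31, with Rplp1 at 609, 647 and 652 in KO and 411, 466 and 381 in WT (0.6 ± 0.088, adjusted p = 0.000161); both lists hold short transcripts.

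Growth and atrophy signals are often read together in muscle. Mstn, myostatin, which limits muscle growth, read 10.5, 6.34 and 8.8 in KO and 129.7, 99 and 89.8 in WT (-3.57 ± 0.2, adjusted p = 9.01e-08), while its close relative Gdf11 read 40.3, 69.8 and 57.2 in KO and 17, 19.3 and 10.1 in WT (1.83 ± 0.34, adjusted p = 0.00108) and Inhba, an activin subunit, rose (1.23 ± 0.29, adjusted p = 0.00492). Myostatin was thus far lower and Gdf11 higher in every KO library. The transducer Smad3 fell (-0.75 ± 0.072, adjusted p = 5.48e-06), as did Wfikkn2, an antagonist of both ligands (-1.21 ± 0.14, adjusted p = 2.39e-05). The atrophy ligases Fbxo32, at 629.9, 462 and 520 in KO and 632, 595 and 450.2 in WT (-0.055 ± 0.27, adjusted p = 0.897), and Trim63, at 359, 446 and 440.3 in KO and 261, 249 and 267 in WT (0.67 ± 0.42, adjusted p = 0.234), did not pass the test. In that list 4 of 23 were higher, namely Mt1, Mt2, Eif4ebp1 (1.02) and Cdc42se1 (0.85 ± 0.13, adjusted p = 0.000262), and 4 lower (7 and 1 under total-count scaling), led by Foxo4 (-0.91 ± 0.1, adjusted p = 2.09e-05).

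Among imprinted genes 6 of 20 were higher and 4 lower (11 and 1 under total-count scaling). Igf2, a fetal growth factor, read 51.1, 39.9 and 85.9 in KO and 11.9, 13.8 and 13.8 in WT (2.05 ± 0.2, adjusted p = 6.27e-06), its neighbour H19, a noncoding RNA, read 2739, 3318 and 3392 in KO and 489, 917 and 919.6 in WT (2.07 ± 0.26, adjusted p = 5.32e-05), and Peg3 rose as well (1.5 ± 0.13, adjusted p = 2.98e-06). All KO libraries exceeded all WT libraries. Slc38a4, an amino acid transporter, fell (-1.41 ± 0.24, adjusted p = 0.00047), with the noncoding Meg3 (-0.89) and Rian (-0.74). The calls of Meg3 and Rian were lost under total-count scaling.

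Of 23 cell cycle inhibitors and p53 targets 8 were higher and 2 lower. Cdkn2a, the senescence-linked inhibitor locus, read 5.74, 6.25 and 10.1 in KO and 0.18, 0.202 and 0.163 in WT (3.49 ± 0.24, adjusted p = 3.7e-07), and Cdkn1a (p21) read 83.8, 108 and 117 in KO and 13.6, 25.1 and 20.9 in WT (2.37 ± 0.44, adjusted p = 0.000988). Eda2r, a receptor of the TNF family, read 70, 82.7 and 72 in KO and 20, 13.6 and 9.74 in WT (2.39 ± 0.25, adjusted p = 1.1e-05), and Gadd45a read 65.6, 71.1 and 77.7 in KO and 16.6, 18.7 and 19.7 in WT (1.93 ± 0.22, adjusted p = 1.96e-05). Groups were apart for all 4. The proliferation list was higher for 9 of 19 and lower for 1, with Mki67 at 1.98, 2.46 and 3.73 in KO and 0.468, 0.547 and 0.627 in WT (1.59 ± 0.3, adjusted p = 0.00105) and Rrm2 at 5.43, 5.64 and 4.29 in KO and 1.55, 1.64 and 1.46 in WT (1.45 ± 0.19, adjusted p = 5.93e-05); Rrm1, the large subunit of the same reductase, fell (-0.82 ± 0.094, adjusted p = 2.37e-05).

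Immediate-early genes, which respond to stimulation within minutes, were higher for 10 of 23 and lower for 0, with a median of 1.17. Egr1 read 60.8, 82.9 and 78.9 in KO and 14.6, 6.25 and 4.49 in WT (3.22 ± 0.49, adjusted p = 0.000224), Fosl1 read 3.16, 5.99 and 4.95 in KO and 0.54, 0.49 and 0.906 in WT (2.16 ± 0.32, adjusted p = 0.000205), and Junb was higher by 2.47. KO libraries were higher in each, with a wide spread of Egr1 in WT. Such genes also respond to handling, and no label gives the time from death to freezing. Clock genes were lower for 4 of 19 and higher for 0, with Hlf, an output factor, at 3.73, 3.99 and 2.32 in KO and 17.4, 15.7 and 16.1 in WT (-2.16 ± 0.27, adjusted p = 4.63e-05) and Rora (-0.64 ± 0.092, adjusted p = 0.000137); sampling times are not given either.

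Macrophage markers were among the most uniform lists, with 18 of 23 higher, 0 lower and a median of 1.44. Cd68, a lysosomal marker of phagocytes, read 18, 21.1 and 26.2 in KO and 1.19, 2.74 and 2.35 in WT (3.14 ± 0.36, adjusted p = 2.16e-05). Lyz2, lysozyme, read 178, 157 and 197 in KO and 28.6, 39 and 35.5 in WT (2.36 ± 0.31, adjusted p = 8.21e-05). Adgre1 (F4/80) was higher by 2.29 and the monocyte receptor Ccr2 by 2.14. KO exceeded WT in all libraries for Cd68 and Lyz2. Genes of damage-associated phagocytes were higher for 12 of 16, including Itgax at 4.69, 4.68 and 7.02 in KO and 0.324, 0.202 and 0.581 in WT (2.78 ± 0.25, adjusted p = 2.97e-06), Spp1 (2.21 ± 0.35, adjusted p = 0.000322) and the protease Ctsk (1.86 ± 0.21, adjusted p = 2.55e-05); Cd36, also a fatty acid transporter, was the 1 that fell (-0.55). The call of Cd36 was lost under total-count scaling and after quantile normalization.

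All 8 tested genes of MHC class II presentation rose, with a median of 2.24. H2-Ab1 read 59.6, 63 and 97.9 in KO and 11.4, 9.65 and 10.9 in WT (2.7 ± 0.27, adjusted p = 7.29e-06), H2-Aa read 77.9, 76.1 and 124 in KO and 15.3, 13.6 and 13.4 in WT (2.64 ± 0.28, adjusted p = 1.23e-05). Ciita, their master regulator, read 2.99, 1.76 and 2.71 in KO and 0.54, 0.778 and 0.767 in WT (1.3 ± 0.28, adjusted p = 0.00269). Complement was higher for 14 of 21, with C1qa at 37.6, 34.4 and 48 in KO and 6.95, 9.3 and 8.95 in WT (2.18 ± 0.3, adjusted p = 0.000109) and C1qb (2.25 ± 0.28, adjusted p = 5.38e-05). Every KO library lay above every WT library for these genes, and KO replicate 3 was the highest for H2-Ab1 and H2-Aa. Class I and interferon-stimulated genes were higher for 10 of 35, with Tapbp (0.75 ± 0.094, adjusted p = 4.88e-05), H2-T23 (0.99 ± 0.16, adjusted p = 0.000317) and Bst2 (1.05 ± 0.26, adjusted p = 0.00615). Chemokines and cytokines were higher for 12 of 23, with Ccl8 at 7.26, 4.73 and 10.4 in KO and 0.684, 0.605 and 0.302 in WT (2.91 ± 0.53, adjusted p = 0.000819), Cxcl16 (1.74 ± 0.23, adjusted p = 8.68e-05) and Tnfsf12 (TWEAK, 1.44 ± 0.12, adjusted p = 1.75e-06).

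Lymphocyte and granulocyte markers gave little. Only 3 of 18 T and NK cell markers passed the filter on low signal, and 1 of them rose, Cd52 (2.43 ± 0.31, adjusted p = 5.22e-05), which other leukocytes also express; Cd3e, which defines T cells, read 4.43, 3.55 and 1.53 in KO and 5.22, 5.1 and 1.56 in WT. Of 10 B cell markers 2 were tested, and Ighm, the heavy chain of IgM, was lower at 34.6, 21.3 and 15.3 in KO and 145, 61.6 and 55.1 in WT (-1.79 ± 0.46, adjusted p = 0.00779). The other, Igkc, went the opposite way without overlap, at 2.07, 0.98 and 2.02 in KO and 0.18, 0.317 and 0.349 in WT. It was not called (1.45 ± 0.56, adjusted p = 0.0591) and rests on few reads in WT. Of 16 neutrophil and mast cell markers 6 were tested and 1 rose, Csf3r (1.03 ± 0.28, adjusted p = 0.0109). Among 5 erythroid markers tested 0 were called, and their summed signal of 251 to 285 in KO lay within the 223 to 309 of WT.

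Matrix genes rose broadly. Collagens and their crosslinking enzymes were higher for 17 of 32 and lower for 0, with a median of 0.71. Col6a3 read 69.7, 121 and 117 in KO and 28.3, 38.6 and 44.9 in WT (1.43 ± 0.23, adjusted p = 0.000369), Lox, which crosslinks collagen, read 27.9, 23.3 and 24.2 in KO and 10.3, 13.1 and 10.6 in WT (1.12 ± 0.2, adjusted p = 0.000765), and Col24a1 read 30.3, 38.2 and 16.8 in KO and 7.96, 7.35 and 12.3 in WT (1.53 ± 0.26, adjusted p = 0.000573). Matrix glycoproteins and proteases were higher for 19 of 36 and lower for 1. Timp1, an inhibitor of matrix proteases, read 17.3, 24.3 and 28.2 in KO and 0.828, 0.49 and 0.674 in WT (4.33 ± 0.42, adjusted p = 5.62e-06), while Timp4, a relative found in muscle, was the 1 that fell (-1.27 ± 0.27, adjusted p = 0.00219). Tnc (tenascin C, 1.72 ± 0.17, adjusted p = 6.28e-06) and the macrophage elastase Mmp12 (3.07 ± 0.38, adjusted p = 4.53e-05) rose. In the TGF-beta system Tgfb1 read 12.8, 19.7 and 20 in KO and 4.07, 3.54 and 4.21 in WT (2.0 ± 0.25, adjusted p = 4.8e-05), its activating integrin Itgav rose (1.13 ± 0.14, adjusted p = 4.09e-05), and the latent binding proteins parted, with Ltbp1 higher (1.13 ± 0.17, adjusted p = 0.000223) and Ltbp4 lower at 41.9, 43.3 and 40.6 in KO and 63.7, 71.9 and 76.5 in WT (-0.74 ± 0.19, adjusted p = 0.00692). The call of Ltbp4 was lost under total-count scaling.

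Of the cells that make matrix, fibro-adipogenic progenitors had markers higher for 4 of 16 and 12 were not called. Among those called was Lum at 75.4, 96.5 and 87.8 in KO and 19.8, 30.6 and 31.7 in WT (1.67 ± 0.27, adjusted p = 0.00042), and the summed signal of the list was 1748 to 2077 in KO and 1133 to 1560 in WT. The call of Pdgfra, the defining receptor of these cells (0.73 ± 0.24, adjusted p = 0.0301), was lost in 4 of 15 alternatives. Tendon markers were higher for 7 of 10, with a summed signal of 451 to 519 in KO and 164 to 278 in WT. The 7 include Egr1, also in the immediate-early list, with a mean of 74.2 in KO and 8.44 in WT. Scx, the tendon transcription factor, read 6.13, 8.78 and 10.3 in KO and 2.85, 3.31 and 2.21 in WT (1.42 ± 0.2, adjusted p = 0.000101). Fmod, fibromodulin, read 119, 122 and 130.3 in KO and 45.6, 91 and 47.7 in WT (1.08 ± 0.24, adjusted p = 0.00379). The share of tendon in each dissection is not given, and its part in the matrix results was not tested.

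Markers of the vessel lining, listed with the growth factors Vegfa and Vegfb, were lower for 13 of 24 and higher for 0 (7 and 2 under total-count scaling). Their median was -0.53, and their summed signal was 1090 to 1154 in KO and 1479 to 1653 in WT. Ptprb, a phosphatase of vessel walls, read 34.9, 34.4 and 35.4 in KO and 62.9, 67.2 and 81.1 in WT (-1.0 ± 0.15, adjusted p = 0.000215), Nos3, the endothelial nitric oxide synthase, read 7.7, 8.6 and 7.15 in KO and 13.5, 15.1 and 13.3 in WT (-0.8 ± 0.19, adjusted p = 0.00453), and Kdr, the main VEGF receptor, differed by -0.93. No KO library reached a WT library for Ptprb and Nos3. Pericyte and smooth muscle markers went both ways, with 4 of 12 higher and 5 lower and a summed signal of 7446 to 7753 in KO and 4569 to 5314 in WT. Most of that sum was Des, also a skeletal muscle identity gene, with a mean of 6528 in KO and 4071 in WT. The sum is therefore not read as a level of these cells. Des is also 1 of the 4 called higher, with Cspg4, Acta2 and Mustn1. The 5 lower were Rgs5, Abcc9, Kcnj8, Notch3 and Myh11 (4 higher and 4 lower under total-count scaling). Rgs5 (-1.03 ± 0.17, adjusted p = 0.00047) and Kcnj8 (-1.12 ± 0.28, adjusted p = 0.00627) fell, Cspg4 (NG2, 1.06 ± 0.16, adjusted p = 0.000224) rose, and Pdgfrb read 27.4, 29.8 and 27.7 in KO and 27.1, 28.6 and 30.3 in WT (-0.019 ± 0.12, adjusted p = 0.919). Vegfa, the growth factor made by fibres, is counted among the 13 of the vessel list that fell (-0.72 ± 0.24, adjusted p = 0.0341), a call lost under total-count scaling. Adipocyte markers such as Adipoq (50.3, 25.9 and 21.8 in KO and 25, 52.2 and 13.6 in WT) overlapped between groups, and Ucp1, the brown fat uncoupling protein, was the only 1 of 11 that fell, at 0.153, 0.0218 and 0.411 in KO and 23.9, 19.9 and 7.37 in WT (-4.54 ± 1.1, adjusted p = 0.00566).

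Several of the largest changes lay outside these lists. Among the rises were Serpinb1a, an inhibitor of leukocyte proteases, at 84.9, 104 and 120.2 in KO and 2.7, 5.85 and 5.79 in WT (4.35 ± 0.26, adjusted p = 1.87e-07), the calcium-activated potassium channel Kcnn4 at 10.8, 16.3 and 16 in KO and 0.396, 0.49 and 0.442 in WT (3.96 ± 0.25, adjusted p = 2.11e-07) and Msln, mesothelin, at 11.8, 13.7 and 12.3 in KO and 0.324, 0.317 and 0.442 in WT (3.93 ± 0.34, adjusted p = 2.53e-06). Among the falls were Dkk3, of the Dickkopf family, at 1.29, 1.81 and 1.43 in KO and 35.3, 35.9 and 55.5 in WT (-4.39 ± 0.35, adjusted p = 1.28e-06), Gdap1, a mitochondrial protein whose loss causes a human neuropathy, at 1.85, 3.38 and 3.34 in KO and 42, 47.2 and 34.5 in WT (-3.66 ± 0.29, adjusted p = 1.22e-06), and Neto2, an auxiliary subunit of kainate receptors, at 1.68, 1.76 and 1.2 in KO and 15.6, 21.1 and 20.5 in WT (-3.25 ± 0.28, adjusted p = 2.25e-06). All 6 were drawn from genes with separate groups, so their separation follows from that choice. Odf3l2 at 0.632, 0.196 and 0.148 in KO and 27.6, 29.1 and 30.7 in WT (-5.21 ± 0.49, adjusted p = 4.91e-06) and 1700001O22Rik at 1.29, 1.46 and 0.937 in KO and 27.2, 29.5 and 23.3 in WT (-3.98 ± 0.32, adjusted p = 1.17e-06) nearly vanished in KO. Gm26723 fell by 3.90 on the log2 scale with an uneven KO group (4.17, 0.0218 and 0.0164). Other large falls were Slc15a5 (-3.08 ± 0.33, adjusted p = 1.6e-05), 2310065F04Rik (-3.04 ± 0.24, adjusted p = 1.28e-06), Efcab6 (-2.94 ± 0.26, adjusted p = 2.98e-06) and Tmem100 (-2.86 ± 0.36, adjusted p = 5.52e-05).

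The KO effect was set against that on the B6;129;DBA2/J background, where 3 KO and 3 WT males were measured in the same fit. The difference of the effects passed the test for 40 of 14113 genes (0.283%), and for 20 of the 5046 genes called here. At an unadjusted p under 0.05 it did so for 1537. The strongest were genes with close copies. Hmga1b had 0 reads in all WT libraries and 25.4, 23.9 and 27.2 in KO here (at least 145-fold against 3 reads per WT library), but 51.8 ± 10.9 in KO and 25 ± 6.36 in WT on the mixed background. Gm10073 read 24.4, 25.8 and 29.4 in KO and 0.252, 0.0288 and 0.163 in WT here and differed by -0.19 ± 0.22 there. Gm3776 also had 0 reads in WT and 7.92, 9.52 and 14.4 in KO, at least 60.2-fold higher, but its effect was not called as different between backgrounds (3.62 ± 0.28 there). Reads of these genes may be shared with near-identical copies, so these values are uncertain.

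Among genes without such copies, Fosb, an immediate-early factor, rose here at 2.68, 2.24 and 3.21 in KO and 0.756, 0.72 and 0.72 in WT (1.37 ± 0.35, adjusted p = 0.00724) while on the mixed background the KO signal was 2.07 ± 0.543 and the WT signal 10 ± 1.16, a difference of effects of 3.42 ± 0.49 (adjusted p = 0.0149). Cdkn2a rose on both, by 3.49 here and 1.44 ± 0.24 there, and the difference passed the test (2.05 ± 0.34, adjusted p = 0.0246). Kif24, a kinesin of the centriole, fell here at 1.03, 1.2 and 1.5 in KO and 2.41, 2.79 and 2.12 in WT (-0.76 ± 0.24, adjusted p = 0.0246) and rose there (2.33 ± 0.24). Its call here was lost in 5 of 15 alternatives. For most genes above the difference was not called: Mt3 differed by 7.38 ± 0.35 there, Mstn by -2.96 ± 0.2, Lgals3 by 3.63 ± 0.33 and Pygm by -1.14 ± 0.12. A difference that was not called does not show equal effects. Ucp2 differed by -0.019 ± 0.26 there and 1.72 here, Gpnmb by 0.4 ± 0.66 and 2.7, and Sdc4 by -0.019 ± 0.22 and 0.91.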

How the data were processed

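PolyA RNA of quadriceps was measured in 15 libraries, of which the 3 KO and 3 WT libraries of the B6;129 background are compared here. Per the submitters' processing notes, the authors used cutadapt, RSEM, edgeR and limma on GRCm38; versions, strand setting and gene filter are not given in the sources used here. The deposited signal is a read count plus 0.5 over a scaled library size: 100% of values came out as whole reads within 0.001. The 15 spinal cord columns were not used. Of 17420 genes, 17397 were found in GENCODE vM21, which gave positions.

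Log2(signal + 0.5) was fitted with limma 3.58.1 (R 4.3.3) to all 15 quadriceps libraries in 5 groups, with an intensity trend. A gene was tested where 3 or more of the 15 libraries reached a signal of 1, so a gene can pass through the group where it is high. Calls use a Benjamini-Hochberg adjusted p under 0.05. As an alternative, edgeR 4.0.16 on the recovered counts called 5059 genes. The fitting script was tested on simulated data with known changes.

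The comparison and the 63 gene lists (1367 genes) were chosen with earlier results of these data known. Named are Gaa and Ltbp4, the 15 largest rises and falls with separate groups, up to 4 called members per list (all of lists with at most 13 members) and 6 genes whose effect differs between backgrounds. Other genes were chosen after their values were seen. A gene that the rule would name is not reported here.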

Additional observations from a re-analysis of the deposited data

Results flagged for a closer look

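The KO effect differed between the B6;129 and the mixed background for 40 genes in limma's test of the difference itself (adjusted p under 0.05), and the genes below passed that test. On the log2 scale, the effect on B6;129 minus that on the mixed background was 4.57 for Hmga1b, 5.58 for Gm10073, -6.75 for Gstp-ps and -3.83 for Tpm3-rs7. Reads of genes with close copies, such as Hmga1b, Gstp-ps and Tpm3-rs7, cannot be assigned with certainty. The same difference was -3.09 for Kif24, 3.42 for Fosb and 2.05 for Cdkn2a. Gstp-ps held at most 1 read in the 6 B6;129 libraries and Tpm3-rs7 at most 4. Column series and background cannot be told apart in these differences.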

How the results depend on the processing

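The number of genes called between KO and WT was 3865 to 4372 when 1 of the 6 libraries was left out and 5819 when only these 6 libraries were fitted, against 5046. Of the limma calls, 4892 (96.9%) were also made by edgeR in the same direction. Total-count scaling, chosen after the data were seen, called 5049 higher and 1011 lower; the cause was not tested. The count of genes whose KO effect differs between backgrounds, 40 with limma, was 10 with edgeR and 203 with DESeq2, and it rested on single libraries, with a range of 11 to 116. It was 26, 12 and 20 without B6;129 KO replicate 1, 2 and 3, and 11 and 16 without B6;129 WT replicate 4 and 5. It was 12, 22 and 116 without mixed KO replicate 6, 7 and 8, and 26 and 69 without mixed WT replicate 1 and 3; the cause was not tested. Of 272 named and called genes, 223 kept call and direction in every alternative that tested them. After quantile normalization 5 changed sign and lost the call: Atp5a1 (0.043), mt-Co1 (0.12), Tnnc2 (0.090), Tnni2 (0.058) and Tpm1 (0.088); the cause was not tested. No paired analysis was possible because KO and WT animals carry different animal numbers. Depth left 14113 of 17420 genes with enough reads to be tested.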
